A study of Homo sapiens with 6 samples.

Results

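HLA class II genes, the invariant chain gene CD74 and the class II transactivator gene CIITA were followed in cells that the labels of both groups call HSC2, a line from a human squamous carcinoma of the mouth. The 2 groups were 3 arrays labelled as stably transfected with full-length wild-type MALT1 cDNA and 3 labelled as transfected with the vector alone (mock). MALT1 is a protease and scaffold of NF-kappaB activation in lymphocytes, and both groups were grown in DMEM with serum and antibiotics. The labels do not say whether each line was 1 clone or a pool, nor whether replicates were cultured separately, so that every p-value here rests on a spread between samples that may be no more than technical. The members were every probe set whose only annotated gene symbol is HLA-DRA, HLA-DRB1, HLA-DPA1, HLA-DPB1, HLA-DMA, HLA-DMB, CD74 or CIITA, which gave 13 probe sets for the 8 genes out of 22215 tested for 11963 genes.

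Class II molecules are pairs of an alpha and a beta chain that carry peptides from the endosomal pathway to the cell surface for CD4+ T cells. The invariant chain CD74 holds new pairs together and fills their groove until cathepsins trim it, and HLA-DM then exchanges the remaining fragment for peptides. CIITA drives these genes together through promoter factors bound at conserved boxes, among them RFX at the X box and NF-Y at an inverted CCAAT (the Y box). B cells, dendritic cells and macrophages express them constantly, and many epithelial cells do so only after interferon-gamma.

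The promoters of the members were read from RefSeq (GRCh38.p14), which matched 6 of the 8 genes with 7 entries of 300 bases, 250 before and 50 from the annotated start. HLA-DRA and CIITA were not among the matched entries. A 9-base run, CTGATGATG, was picked after the sequences were seen because it stands in the promoters of HLA-DRB1, HLA-DMA and HLA-DMB. On either strand it stands in 0.271% of 35116 promoter entries, and CCAAT in 34.6%. These 3 promoters are shown with that of CD74, which holds CCAAT without the run, because HLA-DRB1 passed the test on the arrays and the other 3 genes did not. All 4 lie on the minus strand, at chr6:32589799-32590098 for HLA-DRB1, chr6:32953048-32953347 for HLA-DMA, chr6:32940979-32941278 for HLA-DMB and chr5:150412861-150413160 for CD74. They are written 5′ to 3′ with the run and CCAAT or its reverse complement in capitals.
HLA-DRB1: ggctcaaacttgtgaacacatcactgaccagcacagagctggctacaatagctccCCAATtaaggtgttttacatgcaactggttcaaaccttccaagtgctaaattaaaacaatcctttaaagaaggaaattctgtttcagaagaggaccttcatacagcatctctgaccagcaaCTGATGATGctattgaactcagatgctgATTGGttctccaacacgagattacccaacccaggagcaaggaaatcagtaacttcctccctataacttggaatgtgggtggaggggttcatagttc
HLA-DMA: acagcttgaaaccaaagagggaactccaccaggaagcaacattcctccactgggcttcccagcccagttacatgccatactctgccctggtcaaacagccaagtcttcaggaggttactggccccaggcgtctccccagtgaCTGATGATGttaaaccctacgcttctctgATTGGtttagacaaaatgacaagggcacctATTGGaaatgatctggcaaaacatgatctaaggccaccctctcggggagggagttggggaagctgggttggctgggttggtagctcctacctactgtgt
HLA-DMB: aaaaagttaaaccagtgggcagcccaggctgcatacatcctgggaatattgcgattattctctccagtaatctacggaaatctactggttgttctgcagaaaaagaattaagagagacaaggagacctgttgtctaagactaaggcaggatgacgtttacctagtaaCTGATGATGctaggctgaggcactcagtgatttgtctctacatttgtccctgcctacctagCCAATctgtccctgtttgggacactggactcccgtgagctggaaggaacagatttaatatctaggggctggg
CD74: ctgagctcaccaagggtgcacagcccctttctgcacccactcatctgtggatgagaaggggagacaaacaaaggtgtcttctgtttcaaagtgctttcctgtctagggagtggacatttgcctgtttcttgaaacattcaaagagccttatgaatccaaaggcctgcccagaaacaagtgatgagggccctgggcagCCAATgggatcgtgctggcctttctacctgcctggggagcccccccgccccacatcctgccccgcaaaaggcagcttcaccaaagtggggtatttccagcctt

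In each of the 3 promoters that hold it the run came before a CCAAT of either strand, with 19 bases between them in HLA-DRB1, 20 in HLA-DMA and 52 in HLA-DMB. The run began 74 bases upstream of the annotated start in HLA-DRB1, 108 in HLA-DMA and 83 in HLA-DMB. Neither entry of HLA-DPA1 held the run or CCAAT, and HLA-DPB1 held CCAAT at 2 places and no run. The run and CCAAT do not overlap in any of these promoters. These matches describe letters only.

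**Figure D1:**
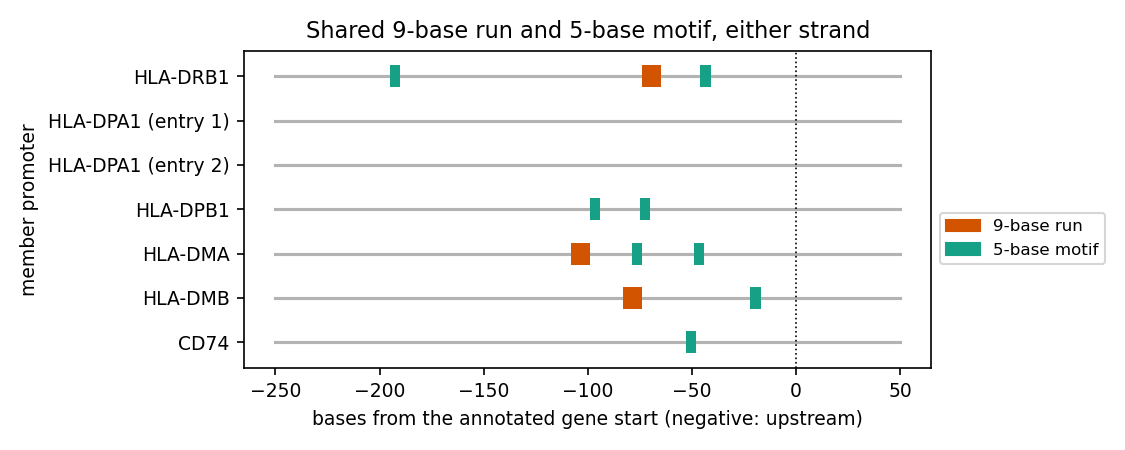
Position of the 9-base run (orange) and of the 5-base motif CCAAT (green), each on either strand, in the 7 promoter entries of the members, with the distance in bases from the annotated gene start on the horizontal axis. HLA-DRB1, HLA-DMA and HLA-DMB hold the run, 74 to 108 bases upstream of the start.

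The signal of a probe set is a linear brightness in arbitrary units, and differences are given as log2(signal + 1) on MALT1-labelled arrays minus mock-labelled arrays, from limma, with p-values adjusted over all 22215 probe sets and a threshold of 0.05. A probe set was called dim on an array where it did not exceed 17.6, the top value that the trp controls (a Bacillus gene) gave on any array. Median signals ran from 69.3 to 79.0 in the MALT1 group and from 64.1 to 68.2 in the mock group, with 25.6% to 31.8% of probe sets dim in the MALT1 group and 32.4% to 33.3% in the mock group. The MALT1 transcript itself read lower on MALT1-labelled arrays on all 3 of its probe sets with no overlap, and 2 of them passed, for example at 128, 124 and 107 there, against 282, 242 and 236 on mock-labelled arrays (log2 difference −1.08 ± 0.12 SE, adjusted p = 0.0022). The labelled transfection thus did not show as a higher reading, and whether these probe sets can read the transfected cDNA was not tested. Groups are therefore named by label throughout. Epithelial markers differed on the same arrays, where 21.1% of all genes, by brightest probe set, were higher and 19.2% lower. Of 13 squamous genes, 12 were lower, with summed signals of 18614 to 19245 on MALT1-labelled arrays and 60743 to 67435 on mock-labelled arrays. Of 17 luminal breast epithelium genes, 15 were higher, with sums of 80120 to 88019 on MALT1-labelled arrays and 9150 to 9834 on mock-labelled arrays. Among them the oestrogen-responsive gene TFF1 averaged 15491 ± 264 on MALT1-labelled arrays and 11.4 ± 2.47 on mock-labelled arrays, the simple epithelial keratin gene KRT19 averaged 12414 ± 567 on MALT1-labelled arrays and 1.25 ± 0.067 on mock-labelled arrays, and the oestrogen receptor gene ESR1 averaged 1765 ± 44.97 on MALT1-labelled arrays and 115 ± 4.65 on mock-labelled arrays (SD, n = 3 each). These values go against a label of 1 squamous line for both groups. Whether all 6 arrays hold the same cell line was not tested, and in every difference below the labelled transfection and a difference between lines cannot be told apart. The part of these markers in the results was not tested. In bulk RNA, fewer cells of a type and less RNA per cell cannot be told apart.

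HLA-DRB1, which encodes the polymorphic beta chain of HLA-DR, was the 1 member that passed the test. Its probe set read 424, 345 and 485 on MALT1-labelled arrays, against 17.3, 22.5 and 30.5 on mock-labelled arrays. The groups lay far apart, with 1 mock array at the dim level and the other 2 just above it. The means were 418 ± 69.9 on MALT1-labelled arrays and 23.5 ± 6.66 on mock-labelled arrays (SD, n = 3 each), an 18.1-fold ratio of geometric means (log2 difference 4.12 ± 0.25 SE, 95% interval 3.50 to 4.75, adjusted p = 0.000267). Larger positive differences were found in 262 of the 22215 probe sets. In all, 35.6% of probe sets passed and 18.6% passed as higher on MALT1-labelled arrays, so that 1 of 13 members higher and 0 lower is a smaller share than that background. At an unadjusted p under 0.05, 2 of the 13 passed. The median log2 difference over the 13 was 0.16, against 0.08 over all probe sets.

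**Figure D2:**
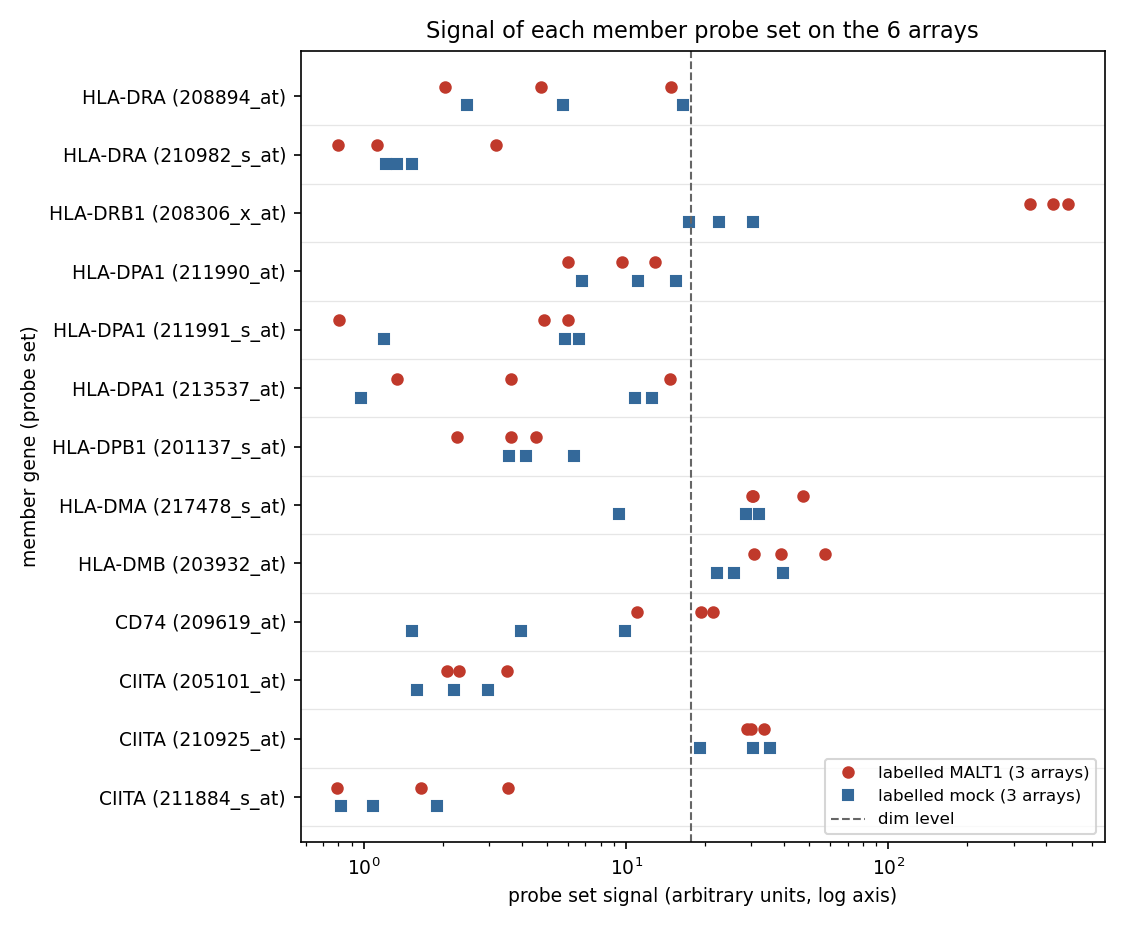
Signal of each of the 13 member probe sets (rows) on a log axis in arbitrary units, with a red circle for each array labelled MALT1 above a blue square for each array labelled mock, and a dashed line at the dim level of 17.6. HLA-DRB1 stands apart at 345 to 485 on MALT1-labelled arrays, while the remaining member probe sets reach at most 57.5 in either group.

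HLA-DRA, which encodes the alpha chain that pairs with every HLA-DR beta chain, was dim on all 6 arrays with both of its probe sets. The brighter one read 2.04, 14.8 and 4.73 on MALT1-labelled arrays, against 16.5, 2.48 and 5.76 on mock-labelled arrays. The groups overlapped, and the log2 difference was −0.19 (95% interval −2.36 to 1.98, adjusted p = 0.893). The s_at probe set read 1.13, 0.799 and 3.204 on MALT1-labelled arrays, against 1.22, 1.34 and 1.53 on mock-labelled arrays (95% interval −0.77 to 0.96). The arrays on which HLA-DRB1 was bright thus showed no HLA-DRA signal above that of the bacterial control, which sets no limit on its transcripts.

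The HLA-DP genes were dim throughout. HLA-DPA1, the DP alpha chain, had 3 probe sets and HLA-DPB1, the DP beta chain, had 1, and all 12 values in each group lay between 0.807 and 15.5. The single HLA-DPB1 probe set read 2.26, 4.54 and 3.64 on MALT1-labelled arrays, against 3.58, 6.31 and 4.16 on mock-labelled arrays (log2 difference −0.35, 95% interval −1.05 to 0.35, adjusted p = 0.401). The groups overlapped in all 4 DP probe sets.

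HLA-DMA and HLA-DMB, the chains of the peptide exchange factor HLA-DM, were weakly above the dim level. HLA-DMA read 30.1, 30.5 and 47.3 on MALT1-labelled arrays, against 28.8, 32.1 and 9.37 on mock-labelled arrays. The groups overlapped, mock replicate 3 being the 1 dim array, and the difference did not pass (log2 difference 0.74 ± 0.51 SE, 95% interval −0.56 to 2.03, adjusted p = 0.339; 0.20 without that array). HLA-DMB read 30.9, 38.8 and 57.5 on MALT1-labelled arrays, against 39.6, 22.2 and 25.8 on mock-labelled arrays, again with overlap (log2 difference 0.52 ± 0.32 SE, 95% interval −0.29 to 1.33, adjusted p = 0.282; 0.28 without MALT1 replicate 3). In both genes the brightest value was on MALT1 replicate 3.

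CD74 lay at the edge of both the dim level and the threshold. It read 21.4, 19.3 and 11.04 on MALT1-labelled arrays, against 9.93, 3.97 and 1.53 on mock-labelled arrays. Every array labelled MALT1 was above every array labelled mock, as in 2 of the 13 member probe sets, where 49.7% of all probe sets had groups that did not overlap. The log2 difference of 1.77 ± 0.59 SE (95% interval 0.26 to 3.28) had an unadjusted p of 0.0292 and an adjusted p of 0.0742. It passed without mock replicate 1, the brightest of the mock arrays (adjusted p = 0.0264), with 16 added before taking logs (adjusted p = 0.0369) and with the replicate number as a block (adjusted p = 0.0408). Under all other alternative settings it did not pass. Among these were median centring (adjusted p = 0.0903), quantile normalization (adjusted p = 0.175) and leaving out MALT1 replicate 1 (adjusted p = 0.183). No fold is given, since all mock arrays were dim and the MALT1 arrays averaged 17.2.

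CIITA, the transactivator of the class II genes, did not pass with any of its 3 probe sets. The brightest read 33.6, 29.9 and 28.8 on MALT1-labelled arrays, against 30.5, 35.2 and 19.1 on mock-labelled arrays (log2 difference 0.16 ± 0.24 SE, 95% interval −0.46 to 0.77, adjusted p = 0.676). The groups overlapped, and the sign of this difference turned with quantile normalization (−0.11) and without mock replicate 3 (−0.0913). The other 2 probe sets were dim on all 6 arrays, with values between 0.791 and 3.53.

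Set beside each other, the 95% intervals of all 12 member probe sets other than that of HLA-DRB1 ended below 3.50, the lower end of the HLA-DRB1 interval. This is a description, since 8 of these 12 were dim on all 6 arrays and dim values can hide changes in either direction.

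The HLA-DRB1 probe set carries the suffix x_at, which marks probes that can bind several related transcripts, and the HLA-DR beta genes are near-identical copies. Besides HLA-DRB1, some people carry HLA-DRB3, HLA-DRB4 or HLA-DRB5 on the same chromosome, and HLA-DRB6 is a pseudogene. Another 4 x_at probe sets list HLA-DRB1 together with other class II symbols and are outside the members. All 4 were higher on MALT1-labelled arrays, with log2 differences of 2.001 to 5.41 and groups that did not overlap. The one that lists HLA-DRB4 and HLA-DRB1 read 203, 211 and 239 on MALT1-labelled arrays, against 29.9, 19.5 and 4.27 on mock-labelled arrays (log2 difference 3.87 ± 0.68 SE, adjusted p = 0.00959). One of 2 that list 4 symbols read 364, 325 and 416 on MALT1-labelled arrays, against 16.3, 49.03 and 24.5 on mock-labelled arrays (log2 difference 3.71 ± 0.41 SE, adjusted p = 0.00193). The other read 249.5, 266 and 239 on MALT1-labelled arrays, against 2.47, 15.5 and 2.69 on mock-labelled arrays, which were all dim, so that it was at least 14.2-fold higher (adjusted p = 0.00258). The one that lists 6 symbols was near the dim level, at 21.98, 16.8 and 31.9 on MALT1-labelled arrays, against 1.75, 9.18 and 6.48 on mock-labelled arrays (adjusted p = 0.0423), and it lost the call under 6 of 11 alternative settings.

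Probe sets named for single other DR beta genes did not move together. The HLA-DRB6 x_at probe set read 83.7, 74.01 and 106 on MALT1-labelled arrays, against 15.3, 8.43 and 2.74 on mock-labelled arrays, at least 4.93-fold higher (adjusted p = 0.00779). The second HLA-DRB6 probe set, with no x in its suffix, was dim on all 6 arrays at 0.567 to 9.91. The 3 HLA-DRB4 probe sets did not pass, and 2 of them were dim on every array. Of 35 probe sets that list any class II gene, 6 passed, all of them x_at, all listing an HLA-DRB symbol and all higher on MALT1-labelled arrays. The 7 x_at probe sets that list no HLA-DRB symbol had 0 calls in limma and 1 at an unadjusted p under 0.05. Which DR beta transcript the 6 measure was not tested.

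**Figure D3:**
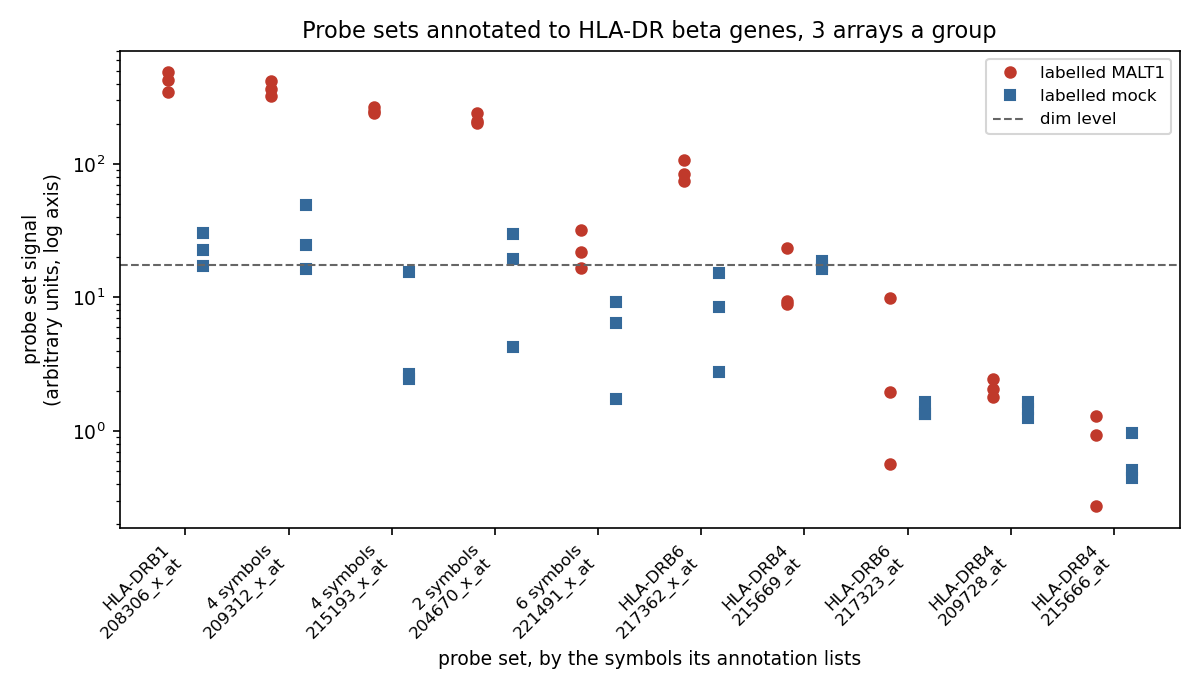
Signal on a log axis (arbitrary units) of the 10 probe sets annotated to HLA-DR beta genes, with red circles for the 3 arrays labelled MALT1 left of blue squares for the 3 labelled mock and a dashed line at 17.6. The 6 x_at probe sets on the left are higher on MALT1-labelled arrays, and the 4 on the right overlap or lie near or below the dashed line.

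The remaining class II genes gave weak signals. HLA-DQB1, the DQ beta chain, had 7 single-symbol probe sets with 0 calls in limma and 2 at an unadjusted p under 0.05. Its brightest read 96.1, 56.5 and 127 on MALT1-labelled arrays, against 78.3, 77.5 and 50.8 on mock-labelled arrays, which overlapped (adjusted p = 0.475). This x_at probe set thus read above the dim level in both groups without passing. A HLA-DQB1 probe set with no x in its suffix was dim on all 6 arrays, at 0.648 to 2.45. Another such probe set read 19.5, 22.3 and 28.3 on MALT1-labelled arrays, against 18.3, 15.5 and 17.4 on mock-labelled arrays. Whether the x_at signal comes from HLA-DQB1 was not tested. Neither HLA-DQA1, the DQ alpha chain, nor HLA-DOA and HLA-DOB, the chains of the HLA-DM inhibitor HLA-DO, passed with any probe set. Over the 7 other class II genes measured, by brightest probe set, 1 was higher (HLA-DRB6), 0 were lower and 6 did not pass, while 1 was lower without MALT1 replicate 3 and without mock replicate 2. By that gene count, 21.1% of all 11963 genes were higher and 19.2% lower.

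Genes that stand next to each other in the class II region did not move alike. Between HLA-DRA and HLA-DPB1, in the gene order of GRCh38.p14, 16 of 18 protein-coding genes were measured. Of 11 class II genes among them, 1 was higher (HLA-DRB1) and 0 lower. Of 5 others, 1 was higher, the bromodomain gene BRD2 (log2 difference 0.38, adjusted p = 0.0318), 3 were lower and the peptide transporter gene TAP1 did not pass (log2 difference −0.29, adjusted p = 0.0538). Those lower were the transporter gene TAP2 (log2 difference −1.75) and the immunoproteasome genes PSMB9 (−3.14) and PSMB8, which was dim on all MALT1-labelled arrays (5.03 ± 1.195), against 364 ± 54.0 on mock-labelled arrays, at least 20.5-fold lower (adjusted p = 6.9e-05). In the 10 protein-coding genes on each flank, 17 of 20 were measured, with 6 higher, 1 lower (HSD17B8) and 10 not passing. Over all genes, 21.1% were higher and 19.2% lower.

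**Figure D4:**
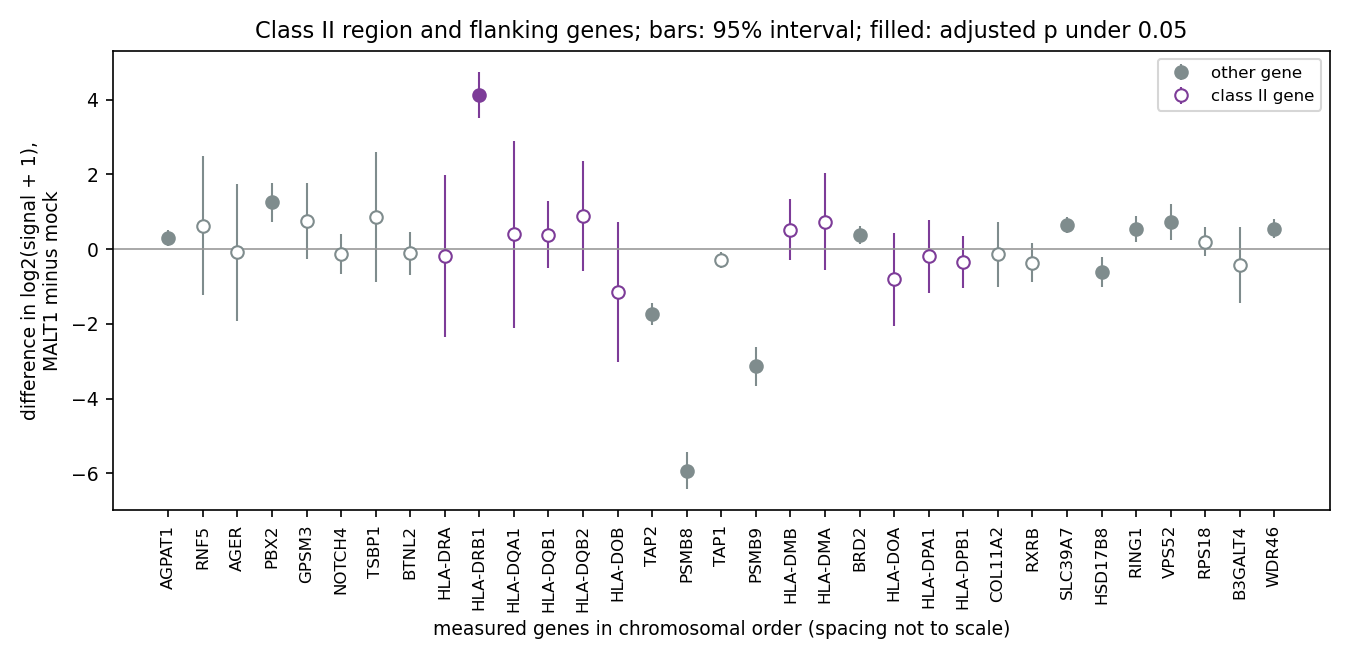
Difference in log2(signal + 1), arrays labelled MALT1 minus mock, for 33 measured genes in chromosomal order across the class II region and its flanks, with 95% intervals as bars, purple for class II genes and grey for others, filled where the adjusted p is under 0.05. HLA-DRB1 is the 1 class II gene that is filled, at 4.12, and PSMB8 is the lowest point, at −5.93.

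The list of class II promoter factors and CIITA partners also holds genes that can repress, among them PRDM1, EZH2 and HDAC2. Of its 16 measured genes, 4 were higher on MALT1-labelled arrays, 0 lower and 12 did not pass (median log2 difference 0.13, against 0.08 over all genes). This count is near the 21.1% of all genes that were higher, and it ranged from 2 to 6 over the alternative settings, with 1 lower under the replicate block and with gene means. RFX5, the DNA-binding subunit of RFX, read 465 ± 34.05 on MALT1-labelled arrays and 169 ± 3.77 on mock-labelled arrays (SD, n = 3 each; log2 difference 1.45 ± 0.09 SE, adjusted p = 0.000318). Its partner subunits did not pass, RFXANK at 332 ± 24.5 on MALT1-labelled arrays and 370 ± 23.2 on mock-labelled arrays (adjusted p = 0.309) and RFXAP at 28.99 ± 3.97 on MALT1-labelled arrays and 28.7 ± 10.7 on mock-labelled arrays (adjusted p = 0.884). The histone acetyltransferase gene CREBBP rose by 1.12 (adjusted p = 0.00191). The NF-Y subunit gene NFYC (log2 difference 0.57, adjusted p = 0.0265) and the chromatin remodeller gene SMARCA4 (log2 difference 0.44, adjusted p = 0.026) lost the call after median centring and without any 1 of 5 arrays, MALT1 replicate 3 being the exception, at adjusted p from 0.0564 to 0.19 over these settings and the replicate block. NFYA did not pass (log2 difference 0.33, adjusted p = 0.0555).

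In the interferon-gamma pathway that induces CIITA in epithelial cells, 1 of 9 measured genes was higher, 5 were lower and 3 did not pass (median log2 difference −0.73). Among all genes, 21.1% were higher and 19.2% lower. Both receptor chains were lower: IFNGR2 read 541 ± 15.3 on MALT1-labelled arrays and 1110 ± 60.1 on mock-labelled arrays (log2 difference −1.03 ± 0.09 SE, adjusted p = 0.00075), and IFNGR1 fell by 0.73 (adjusted p = 0.00186). The receptor kinase genes went apart, JAK1 higher (log2 difference 0.585, adjusted p = 0.0036) and JAK2 lower (log2 difference −1.18, adjusted p = 0.0133). The transcription factor gene IRF1 fell by 0.74 (adjusted p = 0.00977, and 0.063 with the replicate number as a block), and the phosphatase gene PTPN2 fell by 0.86. On the same arrays CIITA did not pass.

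Of 15 measured genes on the list for invariant chain processing and peptide loading, 4 were higher, 9 lower and 2 did not pass. Among all genes, 21.1% were higher and 19.2% lower. The median log2 difference of the list was −0.90, or −0.72 with dim members at their bound. Its genes do not all act in the same direction, so that these counts give no direction for processing. The cathepsin gene CTSZ had a log2 difference of −2.96, CTSC of −1.72 and CTSB of −1.64. CTSV, another cathepsin gene, read 959 ± 82.1 on MALT1-labelled arrays and 3832 ± 295 on mock-labelled arrays (adjusted p = 0.000223). CST3, which encodes a cathepsin inhibitor, was also among the lower ones and fell by 0.90. CTSH (log2 difference 1.48), the adaptor gene AP1S1 (0.80), CTSD (0.37) and CTSL (0.35) were higher. CTSS, whose product makes the last cuts in the invariant chain of professional presenting cells, read near the dim level at 15.8 ± 12.1 on MALT1-labelled arrays and 37.9 ± 19.8 on mock-labelled arrays and did not pass (adjusted p = 0.223).

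CD74 at the cell surface also binds the cytokine MIF together with CD44 and chemokine receptors. MIF did not pass (log2 difference 0.24, 95% interval −0.0049 to 0.49, adjusted p = 0.12). CD44 read 1794 ± 144 on MALT1-labelled arrays and 9894 ± 238 on mock-labelled arrays (log2 difference −2.47 ± 0.10 SE, adjusted p = 9.4e-05). The chemokine receptor genes CXCR4 (at least 73.2-fold) and ACKR3 (log2 difference 2.12 ± 0.10 SE) were higher, and CXCR2 was dim on all arrays. So 2 of 5 measured partners were higher and 1 lower, where 21.1% of all genes were higher and 19.2% lower.

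Class I presentation genes share interferon control with class II. Of 17 measured, 1 was higher on MALT1-labelled arrays, 11 were lower and 5 did not pass (median log2 difference −0.72). The shares over all genes were 21.1% higher and 19.2% lower, with a median of 0.08. Beside the immunoproteasome and TAP2 genes above, the peptide trimming genes ERAP2 (log2 difference −3.19) and ERAP1 (−1.94) were lower, and PSMB10 was higher (0.91). No test compared the class I with the class II list.

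**Figure D5:**
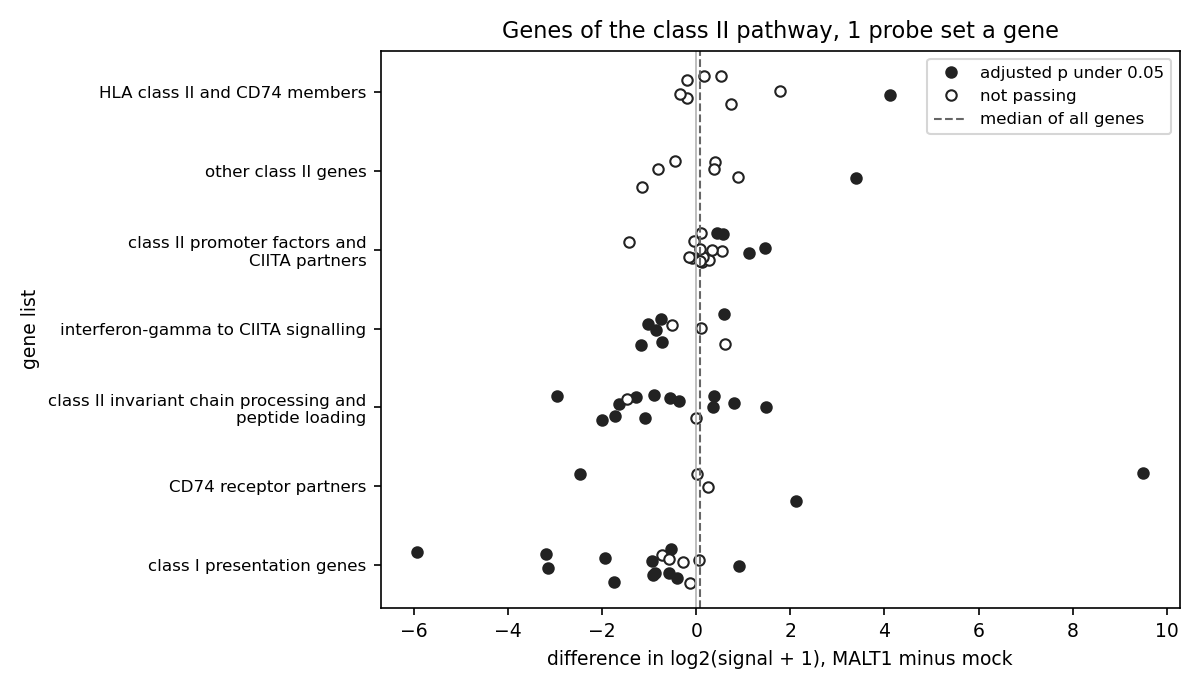
Difference in log2(signal + 1), arrays labelled MALT1 minus mock, for each measured gene of the members and 6 lists, filled where the adjusted p is under 0.05, with a dashed line at the median of all genes, 0.08. The members hold 1 filled point at 4.12, while filled points of the processing and class I lists lie mostly left of 0.

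Markers of leukocytes and professional antigen presenting cells were mostly dim or did not pass. Of 22 measured, 1 was higher, 2 lower and 19 did not pass, where 21.1% of all genes were higher and 19.2% lower. Summed signals were 402 to 629 on MALT1-labelled arrays and 805 to 856 on mock-labelled arrays. Most of that gap lay in LAPTM5, at 54.5 ± 8.44 on MALT1-labelled arrays and 342 ± 10.5 on mock-labelled arrays (SD, n = 3 each). The median log2 difference of the list was 0.16. The pan-leukocyte gene PTPRC, the macrophage genes LYZ and AIF1 and the B cell gene CD79B were dim on all 6 arrays. CD14, a monocyte gene, passed at 17.6 ± 9.86 on MALT1-labelled arrays, against 1.51 ± 0.67 on mock-labelled arrays, so that no fold is given, and LAPTM5 (log2 difference −2.64) and CD83 (−1.003) were lower.

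Among 11955 genes outside the members, by brightest probe set, those whose log2(signal + 1) followed HLA-DRB1 most closely over the 6 arrays were AKAP1 and CENPX (Pearson r = 0.9996 each) and NHP2 (r = 0.9992). AKAP1, a mitochondrial anchor of protein kinase A, read 2025, 1969 and 2106 on MALT1-labelled arrays, against 1256, 1301 and 1367 on mock-labelled arrays. This likeness is a description: the 6 points share 2 groups that differ in many genes, and r was over 0.95 for 1693 genes.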

How the data were processed

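Total RNA from 6 samples was made into biotinylated target for Affymetrix 3′ expression arrays, 1 per sample, per the labels' protocols. The deposited values are linear intensity values per probe set, with no detection call. The software's name was not given in these sources. Judged by the signals, each array was scaled to a mean of 500.1 to 500.2 after trimming 2% at each end. The number of arrays limits the precision.

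Of 22277 probe sets, 62 controls were left out and 22215 tested, unfiltered, as log2(signal + 1), which shrinks the change of dim genes. Symbols came from the platform annotation (19064 probe sets with 1 symbol, 1043 with several, 2108 with none), of which 19052 matched the RefSeq table of GRCh38.p14 by gene ID. The array names no build, so array features carry no coordinates. limma 3.58.1 in R 4.3.3 (lmFit, eBayes, group as the only term, two-sided, Benjamini-Hochberg over all probe sets) gave every adjusted p. The fit was also tested on simulated data. No outcome of that test is given here, and it is not used as support for any call on weak or dim members. In lists a gene took its brightest probe set. A fold against an all-dim group is the geometric mean over 17.6. Named were all members, up to 5 genes per list by smallest adjusted p, preset CIITA regulators, MALT1 and the 3 genes most like HLA-DRB1. Counts of 5 or fewer genes that passed in the main fit were named in full. Genes that did not pass were not always named. CTSS, HLA-DQA1, HLA-DQB1, PRDM1, EZH2 and HDAC2 fall outside these rules and were chosen after their values were seen. Listed genes without a single-symbol probe set, such as NLRC5, were not analysed here. Members and lists were chosen with earlier results of these data known. Alternatives were a pseudocount of 16, median centring, quantile normalization, a dim filter, the replicate number as a block, each array left out, and gene means.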

Additional observations from a re-analysis of the deposited data

How the results depend on the processing

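HLA-DRB1 passed as higher under all 11 alternatives, with log2 differences of 3.46 to 4.32 and adjusted p of 2.8e-05 to 0.00728. The member probe sets and the member genes that passed each numbered 2 in place of 1 with a pseudocount of 16 and with the replicate block, and 1 to 2 when each array was left out, the added one being CD74. The CIITA difference, which never passed, became −0.11 after quantile normalization and ranged from −0.09 to 0.33 without single arrays, the value being −0.0913 without mock replicate 3. Whether the replicate numbers pair the arrays was not settled, since r was near 0 for same-numbered arrays (0.0439, 0.0075 and 0.0451) and for the others (−0.0619 to 0.0352). MALT1 replicates 1 and 3 were closest to the mock array of the same number, and MALT1 replicate 2 was closest to mock replicate 1. The block gave 5808 calls over all probe sets in place of 7917. Centring each array on its median moved the median log2 difference over all probe sets to −0.05, against 0.08. The count of higher genes was 2 in place of 4 both for the promoter factors and for the processing genes after median centring, with the replicate block and without any 1 array except MALT1 replicate 3. The promoter factor count was 6 with a pseudocount of 16 and with quantile normalization. With the dim filter 5 of 13 member probe sets were left. The causes were not tested. Members at or below 17.6 are limited by signal over background. For those dim on all 6 arrays, the sign of a printed difference is not read as a direction.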

Other observations

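The run CTGATGATG stood in a promoter entry of 89 genes, of which 4 are class II genes (HLA-DRB1, HLA-DMA, HLA-DMB and HLA-DOB) and 26 were measured. The run was picked for standing in HLA-DRB1, HLA-DMA and HLA-DMB, so that their place among these genes was fixed in advance. Of the 26 measured, 6 were higher on MALT1-labelled arrays, 2 lower and 18 did not pass. This count is near the 21.1% of all genes higher, with 19.2% lower. Besides HLA-DRB1, the higher ones were KIAA0319, MBD5, MYO5A, SAMD4A and SLC37A1, and the lower ones were KLF5, an epithelial transcription factor (log2 difference −1.98, adjusted p = 0.00015), and PKIG, a protein kinase A inhibitor (log2 difference −0.88). HLA-DOB read 3.75, 7.93 and 10.3 on MALT1-labelled arrays, against 31.5, 5.24 and 24.7 on mock-labelled arrays, which overlapped (adjusted p = 0.301).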
